A study of Mus musculus with 8 samples.

Results

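The cytosolic ribosomal proteins build the 40S and 60S subunits of the ribosome, and their transcripts were followed here in 2-cell mouse embryos with and without the stress-response genes Gadd45a and Gadd45b. Members were the protein-coding genes whose symbol is Rpl or Rps with a number and at most 1 suffix letter, plus Rpsa, Rplp0, Rplp1, Rplp2 and Fau. This gave 80 of the 37310 genes in the count tables, 33 of the small (40S) subunit and 47 of the large (60S) subunit. Rps3a1 was accepted through its older symbol Rps3a, and Rps4l and Rpl6l, 2 symbols of the right form, were left out because they are annotated as pseudogenes. Rpl24 and Rpl41 matched no identifier and were not analysed here.

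RNA-seq counts covered 8 pools of C57BL/6N 2-cell embryos, 4 wild-type and 4 Gadd45a/Gadd45b double knockout (DKO). Each pool held 23 to 35 embryos of 1 litter, taken 20 h after the vaginal plug from superovulated, naturally mated females 3 to 4 weeks old, and every pool was washed in hyaluronidase. The DKO line was bred from separate constitutive Gadd45a and Gadd45b mutants, and DKO embryos came from DKO females, so loss in the oocyte and loss in the embryo cannot be told apart. A pool is a bulk sample of whole embryos, in which fewer cells of a kind and less RNA per cell cannot be told apart either.

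A ribosome carries a single copy of most of its proteins, so the messages of these genes are usually kept near one another in abundance, and many begin with a run of pyrimidines at the transcription start that lets the kinase mTOR and the binding protein Larp1 control their translation. The oocyte stores ribosomes and these messages. The embryo takes over their supply when its own genome is activated, which in the mouse is mainly at the 2-cell stage. A few members have a paralogue, a duplicated copy such as Rpl39l, Rpl10l or Rpl3l, known for use in particular tissues such as the testis or muscle.

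The libraries held 21329736 to 23919114 counts. Gadd45b was at 45.3 ± 11.8 CPM (counts scaled to library size, with TMM factors; SD, n = 4) in wild-type and 0.276 ± 0.244 CPM (SD, n = 4) in DKO pools. Gadd45a was at 20.0 ± 2.95 CPM in wild-type and 9.40 ± 1.69 CPM in DKO pools, a log2 fold change of -1.09 that did not pass the test over all genes (edgeR quasi-likelihood test, adjusted p = 0.303). The sources used here do not say which part of Gadd45a that allele lacks. Of the fixed 2-cell markers, 4 of 5 matched the tables and were detected, with summed levels of 431 to 661 CPM in wild-type and 531 to 831 CPM in DKO pools. Markers of the cumulus cells that surround the oocyte summed to 9.18 to 15.02 CPM over all pools. Amh, Foxl2, Ptx3 and Inhba had 0 counts in every library, while Tnfaip6 and Cyp19a1 were detected in every library. Tnfaip6 had means of 7.94 CPM in wild-type and 8.75 CPM in DKO pools, and Cyp19a1 of 1.77 and 2.42 CPM. The other markers of this list had lower means.

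Many members, but not all, have a pyrimidine run at or near an annotated start. Whether their messages begin within that run was not measured. The 7 stretches below are RefSeq sequences of GRCm38.p6, each with 20 bases before the annotated start and 20 from it on, printed on the gene's strand with the longest run of C and T in capitals. They were chosen to show 5 members with a run at the start and 2 paralogues without one, from both subunits and from the stalk, the flexible arm of the 60S subunit that calls in translation factors.
Rps6 (chr4:86857348-86857387, minus strand): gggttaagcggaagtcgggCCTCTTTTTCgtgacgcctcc
Fau (chr19:6057927-6057966, plus strand): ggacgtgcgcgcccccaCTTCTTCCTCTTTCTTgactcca
Rpl35 (chr2:39005112-39005151, minus strand): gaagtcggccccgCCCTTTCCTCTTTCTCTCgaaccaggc
Rplp2 (chr7:141447631-141447670, plus strand): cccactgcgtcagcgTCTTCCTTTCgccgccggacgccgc
Rpl38 (chr11:114668560-114668599, plus strand): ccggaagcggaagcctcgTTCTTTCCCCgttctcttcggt
Rpl10l (chr12:66284382-66284421, minus strand): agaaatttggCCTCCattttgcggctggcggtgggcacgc
Rpl3l (chr17:24727806-24727845, plus strand): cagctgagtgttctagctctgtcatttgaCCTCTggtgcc
The run spans the annotated start in Rps6, Fau, Rpl35, Rplp2 and Rpl38 and is 10, 16, 18, 10 and 10 bases long. In Rpl10l, an intronless copy, the longest run of C and T in the stretch is 5 bases and lies upstream of the start, and at the first of the annotated starts of Rpl3l it is 5 bases and lies downstream.

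RefSeq promoters were matched for 60 of the 80 members. A run of at least 8 C or T on the gene's strand, lying within 30 bases either side of any of its annotated starts, was present in 35 of 60 members (58.3%) and in 25.8% of 27025 genes with a promoter entry. The letters CCGGAAG, a core that Ets-family factors bind, occurred on either strand of the 300-base promoter in 25 of 60 members (41.7%), against 9.93% of all genes. AAGATGGC, the core of the YY1 motif, occurred in 6 members (10%) against 3.19%, and the TATA box letters TATAAA in 6 members (10%) against 15.7%. Paralogues did not all lack the pyrimidine run: it was found for Rpl39l and Rps27l, and not for Rpl10l or Rpl3l. Of their partners, Rpl39 and Rps27 had it and Rpl10 did not. These matches are descriptions of the windows and were not tied to any expression value.

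Member transcripts were abundant in 2-cell embryos but took a small share of the library. The 80 genes together held 1.28% of all counts over the 8 libraries. The median member was at 112 CPM in wild-type pools, against 9.93 CPM for all 14970 genes that passed the filter on low counts, and 65 of the 80 lay above the third quartile of those genes. All 80 members passed the filter.

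Levels were far from equal. Divided by the length of all annotated exons merged, the wild-type median was 59.5 CPM per kb, with quartiles of 31.0 and 99.1, and the highest member stood 463-fold above the lowest. Among the highest were Rplp0, the base of the stalk, at 1425 CPM per kb, Rps27l, a paralogue of Rps27, at 529, Rps3a1 at 402, and Rpl19 at 308. The lowest 5 were Rps15a at 8.11, Rpl35a at 7.98, Rpl27a at 7.76, Rpl3l, the paralogue of Rpl3 known from muscle, at 7.10, and Rpl23a, which sits at the exit of the nascent chain tunnel, at 3.08 CPM per kb. The plot of levels by gene shows the spread to be gradual in between, with the pools of both genotypes overlapping at every gene.

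**Figure D1:**
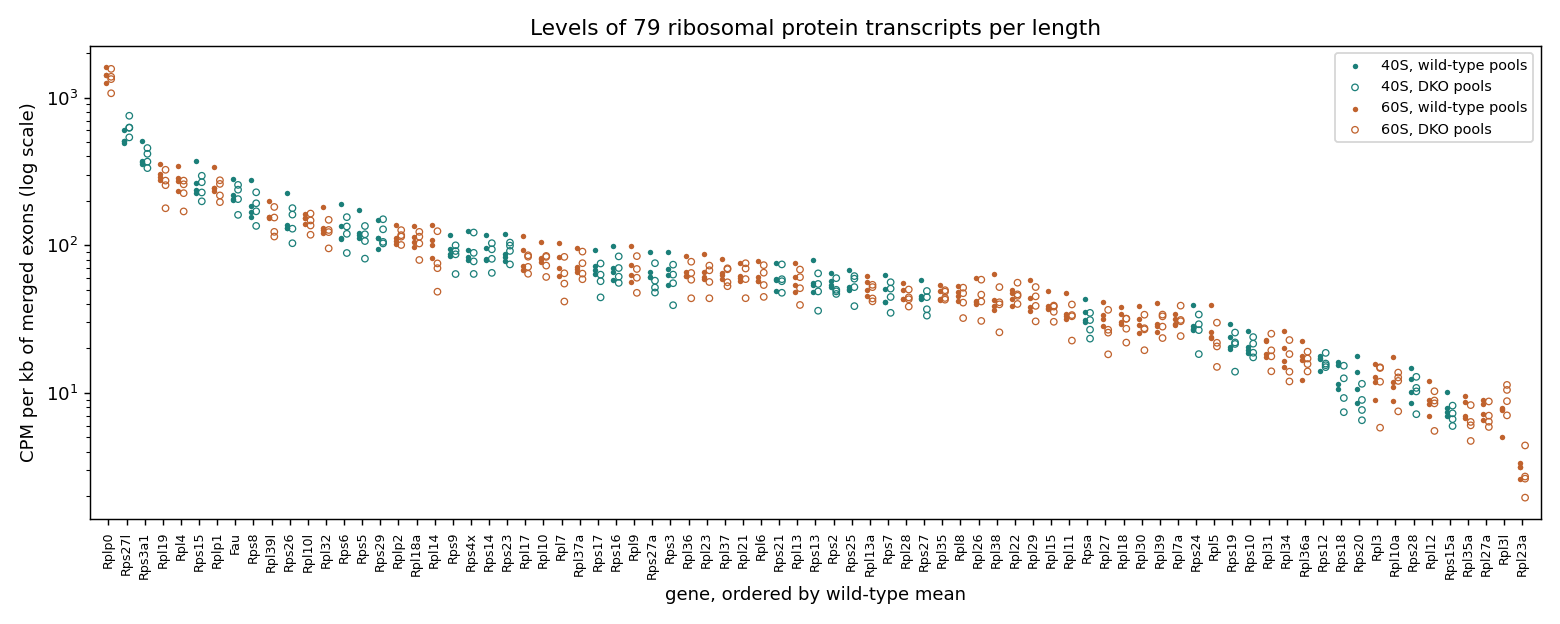
Level of 79 members in each of the 8 pools, in CPM per kb of merged exons on a log scale, with genes ordered by their wild-type mean. Filled points are wild-type pools and open circles DKO pools, and the order runs from Rplp0 at 1425 to Rpl23a at 3.08 CPM per kb.

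The range changed with the length used and with sequence shared between genes. With the longest coding transcript as length, the range was 374-fold and the order of members changed too. Rpl35a came to 54.2 CPM per kb, at rank 66 of 80 from the highest, against rank 77 by merged exons. Rps20 came to rank 77, against rank 71 by merged exons. Ribosomal protein genes have many processed copies in the genome, and the median member shared 28.6% of its 85-base windows, the length of a read, with some other annotated gene. Rpl23a shared 80.7% of its windows with 16 other genes, and the part of shared reads in its low level was not tested. The sources used here do not say how such reads were counted. Windows of members came from protein-coding transcripts only, so exons found only in other transcripts were not searched. An estimated unshared length was the merged exon length scaled by the percent of windows not shared. With the same counts divided by this estimate, the range was 246-fold and Rpl23a came to 15.9 CPM per kb. Counts on the unshared sequence alone were not measured. Across the 80 genes, which are not independent replicates, Spearman's rho between level and shared windows was -0.13. Counts on the 188 named ribosomal protein pseudogenes in the tables came to 0.814 to 1.07 per 100 member counts.

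Transcripts of the stalk proteins did not stand at equal levels. Rplp0 binds the 60S core as a single copy and carries the dimers of Rplp1 and Rplp2, yet its transcript was the commonest of all, with 2097, 2355, 2346 and 2659 CPM in wild-type pools 1 to 4 and 1777, 2298, 2216 and 2600.0 CPM in DKO pools 1 to 4. The groups overlap, and Rplp0 alone made up 15.95% to 19.7% of each library's member counts. Wild-type levels per kb were 1425 for Rplp0, 265 for Rplp1 and 115 for Rplp2, and their log2 fold changes in DKO were -0.09, -0.16 and 0.00.

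The 3 pairs of duplicated genes below are shown by sequence, since a read can be told apart between partners only where their bases differ. Each stretch is 60 bases of coding sequence from GENCODE M21, at the same position in both genes, and capitals mark bases that differ between the partners.
Rpl39 (chromosome X, coding bases 94 to 153): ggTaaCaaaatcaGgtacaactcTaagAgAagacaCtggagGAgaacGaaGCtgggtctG
Rpl39l (chromosome 16, coding bases 94 to 153): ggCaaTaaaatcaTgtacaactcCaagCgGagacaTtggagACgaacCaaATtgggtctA
Rps27 (chromosome 3, coding bases 4 to 63): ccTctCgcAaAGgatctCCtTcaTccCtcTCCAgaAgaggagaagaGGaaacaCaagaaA
Rps27l (chromosome 9, coding bases 4 to 63): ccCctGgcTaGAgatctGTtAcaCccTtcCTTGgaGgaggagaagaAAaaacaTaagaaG
Rpl10 (chromosome X, coding bases 334 to 393): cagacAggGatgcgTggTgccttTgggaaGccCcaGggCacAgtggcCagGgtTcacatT
Rpl10l (chromosome 12, coding bases 334 to 393): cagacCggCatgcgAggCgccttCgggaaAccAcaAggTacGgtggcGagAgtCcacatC
The stretches differ at 13, 19 and 14 of 60 bases. Over the whole coding sequence Rpl39 and Rpl39l were 85.3% identical, Rps27 and Rps27l 76.1%, and Rpl10 and Rpl10l 84.8%. Rpl39l and Rpl10l shared no 85-base window with any other annotated gene, and Rps27l shared 4.43% of its windows. Their partners shared more: Rpl10 70.0%, Rps27 41.5% and Rpl39 4.73%, and Rpl3 shared 62.6% against 0 for Rpl3l. The part of shared reads in these ratios was not tested. With the estimated unshared length as divisor, wild-type levels were 288 CPM per kb for Rpl10 and 152 for Rpl10l. They were 81.2 for Rps27 and 554 for Rps27l, and 32.6 for Rpl39 and 165 for Rpl39l. The estimate applies the percent from protein-coding transcripts to all merged exons. For Rpl10 that percent came from 937 windows, against 2053 bases of merged exons, so its order with Rpl10l is uncertain by this length.

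Rps27l, also known as a target of p53, was the commoner copy of its pair in every pool. Rps27l stood at 412, 418, 493 and 405 CPM in wild-type and 615, 510.0, 512 and 439 CPM in DKO pools 1 to 4, and Rps27 at 47.1, 45.5, 45.1 and 60.4 CPM in wild-type and 34.8, 51.1, 38.5 and 46.5 CPM in DKO pools. Per kb of merged exons, Rps27l over Rps27 was 11.4 ± 2.21 (SD, n = 4) in wild-type and 16.1 ± 4.84 (SD, n = 4) in DKO pools. The ratio was highest in DKO pool 1, at 22.6, and lowest in wild-type pool 4, at 8.58, and the groups overlap. With coding transcript lengths the means were 7.08 and 10.04.

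Rpl39 and its copy line the exit tunnel of the 60S subunit. Rpl39l was at 127, 129.8, 129 and 165 CPM in wild-type and 95.3, 151, 103 and 128 CPM in DKO pools, and Rpl39 was at 40.7, 37.2, 42.3 and 58.0 CPM in wild-type and 33.8, 47.3, 40.3 and 48.7 CPM in DKO pools. Per kb, Rpl39l was 5.38 ± 0.467-fold (SD, n = 4) above Rpl39 in wild-type and 4.83 ± 0.497-fold (SD, n = 4) in DKO pools. It was the commoner copy in all 8 pools by both lengths, the coding transcript ratio being 2.37 in wild-type and 2.13 in DKO pools.

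For Rpl10, which completes the 60S subunit, the order depended on the length. Rpl10l over Rpl10 was 1.79 ± 0.261 (SD, n = 4) in wild-type and 1.88 ± 0.0995 in DKO pools per kb of merged exons. Per kb of coding transcript it was 0.745 and 0.781. By the estimated unshared length Rpl10 was the higher, but that estimate is uncertain for Rpl10. Rpl7l1 over Rpl7 crossed 1 in the same way, at 1.28 in wild-type by merged exons and 0.741 by coding transcript. Rpl3l over Rpl3 was 0.580 ± 0.0654 (SD, n = 4) in wild-type and 0.866 ± 0.275 (SD, n = 4) in DKO pools by merged exons. By coding transcript it was 0.295 and 0.440. By merged exons DKO pool 1 was the highest, at 1.21. DKO pool 2, at 0.590, lay among the wild-type pools, so the groups overlap. Rpl22l1 over Rpl22 was 0.280 and 0.211 by merged exons, and 0.712 and 0.537 by coding transcript. Here it was the paralogue that shared more, 47.2% of the windows of Rpl22l1 against 0.404% of those of Rpl22. Rpl36al over Rpl36a was 4.43 and 4.30 by merged exons and 1.37 and 1.33 by coding transcript, but 84.2% of the windows of Rpl36a were shared with another gene. Rps4l, annotated as a pseudogene, stood at 3.03 times Rps4x per kb in wild-type and 2.92 times in DKO pools. Shared windows were 46.0% for Rps4x and 4.42% for Rps4l, and 33.0% for Rpl7 and 2.48% for Rpl7l1. For these pairs too, the part of shared reads in the ratios was not tested.

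**Figure D2:**
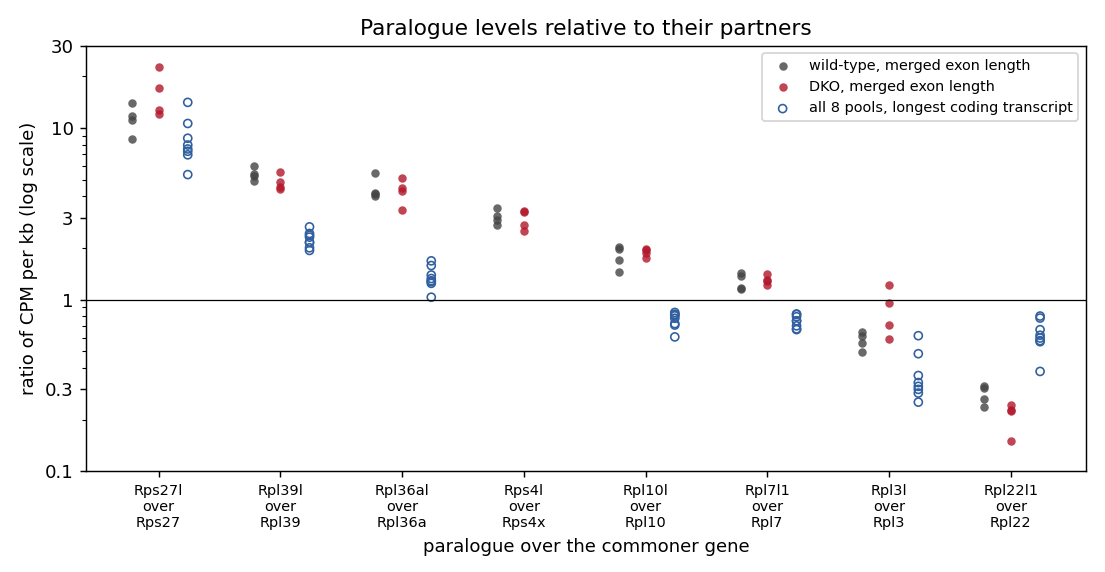
Ratio of the paralogue to its partner, named second on the axis, in each pool, each gene's CPM divided by its length in kb, on a log scale with a line at equal levels. Grey and red points use merged exon length, blue circles the longest coding transcript of all 8 pools (none for Rps4l), and only the Rps27, Rpl39 and Rpl36a pairs lie above 1 by both lengths in all pools.

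No member passed the test between DKO and wild-type pools, a comparison that asks what loss of both Gadd45 genes does to these transcripts. edgeR called 4 of 14970 genes (0.0267%) at an adjusted p under 0.05 and 0 of the 80 members, and the smallest adjusted p of a member was 0.471. DESeq2 called 0 members and 0.314% of all genes, and limma-voom 0 members and 0.0334% of all genes. At an unadjusted p under 0.05, edgeR gave 1 of 80 members, against 10.2% of all genes. It was lower in DKO, as were 4.44% of all genes, and 0 members were higher, against 5.79% of all genes. At that unadjusted p DESeq2 gave 1 member, against 11.9% of all genes, and limma-voom 1, against 11.0%. The edgeR member was Rps20, and the limma-voom member was a different gene. In limma-voom Rpl3l, higher in DKO with a log2 fold change of 0.64, had a smaller adjusted p (0.377) than Rps20 (0.556). In 0 of 80 members did the 4 DKO pools lie wholly apart from the 4 wild-type pools, against 5.34% of all genes.

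Fold changes were small and mostly on one side of 0. The log2 value, taken as DKO over wild-type, was below 0 in 73 of 80 members, against 48.8% of all genes tested, with a median of -0.14, against 0.01 over all genes tested. Both subunits had it, with 30 of 33 members of the 40S subunit below 0 (median -0.14) and 43 of 47 of the 60S subunit (median -0.13). Members ran from -0.55 to 0.41, with a median standard error of 0.18. Members share pools and are not replicates, so these counts carry no test.

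The data bound the size of a change for most members. The 95% interval of the log2 fold change lay within 2-fold either way for 79 of 80 members, against 57.9% of all genes, the exception being Rps20. It lay within 1.5-fold for 51 of 80, against 21.0% of all genes. The median standard error was 0.18 for members and 0.27 for all genes tested. Members also had more counts, at a median of 112 CPM in wild-type pools against 9.93 CPM, and genes of like level were not compared.

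**Figure D3:**
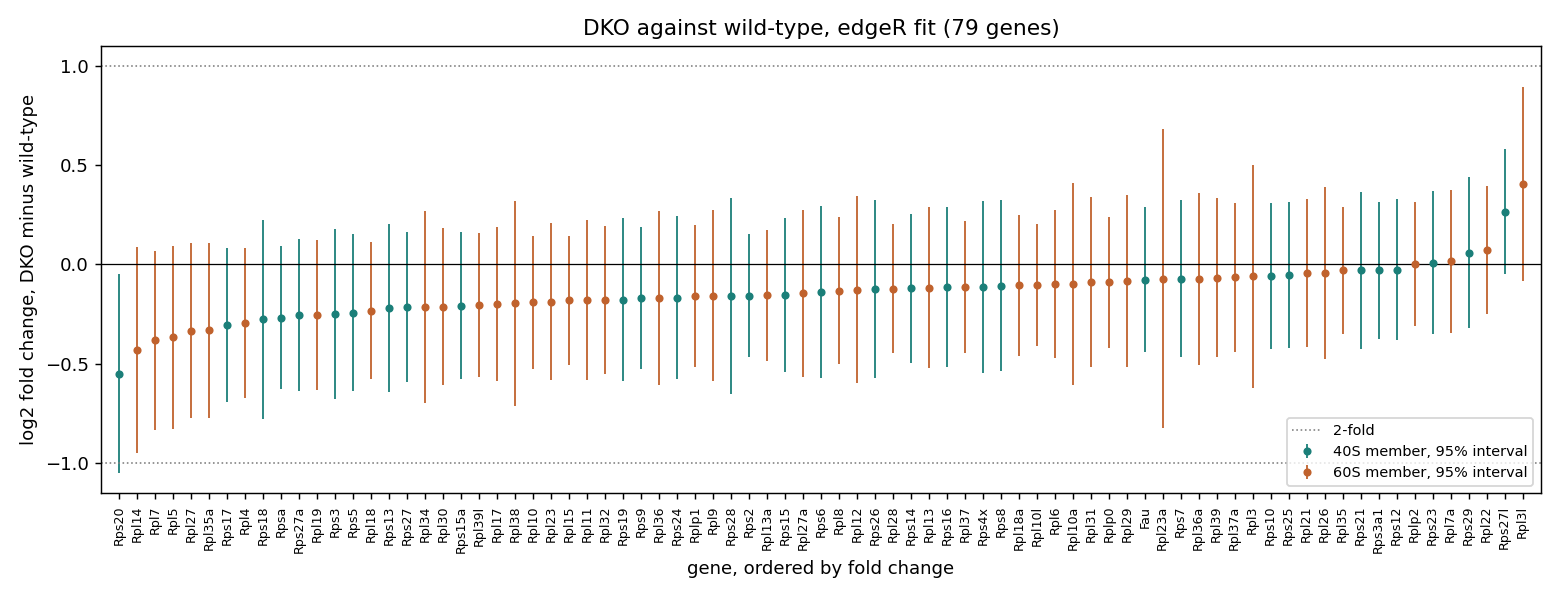
Log2 fold change (DKO minus wild-type) of 79 members from the edgeR fit, ordered, with bars for the 95% interval and dotted lines at 2-fold. All intervals but that of Rps20, at the left end, lie within the dotted lines, and 72 of the 79 points lie below 0.

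Rps20, a 40S protein of the head of the subunit, had the lowest fold change. It stood at 56.2, 35.1, 43.5 and 72.5 CPM in wild-type and 26.6, 47.0, 31.3 and 36.6 CPM in DKO pools 1 to 4. The DKO pools other than pool 2 lie below every wild-type pool other than pool 2, and the groups overlap. The log2 fold change was -0.55 ± 0.23 (SE, n = 4 per group; edgeR unadjusted p = 0.0335, adjusted p = 0.471). It was -0.35 without wild-type pool 4 and -0.34 with limma-voom. The unadjusted p of Rps20 was no longer under 0.05 with limma-voom, with embryos per pool as a covariate or with a replicate block. The same was so in edgeR without DKO pool 1, DKO pool 3, DKO pool 4, wild-type pool 1 or wild-type pool 4.

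The next 4 lowest were large-subunit proteins. Rpl14 was at 177 ± 38.4 CPM (SD, n = 4) in wild-type and 131 ± 53.1 CPM in DKO pools, a log2 fold change of -0.43. Rpl7 had -0.38, Rpl5 -0.37 and Rpl27 -0.33, each with an adjusted p of 0.523 or more by edgeR. Single pools moved these values: without DKO pool 1 the 4 genes were at -0.26, -0.24, -0.23 and -0.20, without wild-type pool 4 at -0.29, -0.23, -0.17 and -0.23, and without DKO pool 2 at -0.74, -0.57, -0.56 and -0.53. Rpl5 and Rpl11 travel together with 5S RNA into the 60S subunit and can bind the p53 regulator Mdm2. Rpl5 was at 92.7, 102, 94.1 and 154 CPM in wild-type and 58.8, 117, 85.7 and 80.9 CPM in DKO pools, and Rpl11 at 89.1, 85.5, 92.2 and 128 CPM in wild-type and 61.0, 107, 89.1 and 90.8 CPM in DKO pools. For both, wild-type pool 4 was the highest and DKO pool 1 the lowest of all 8.

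Members with known roles outside the core or in disease had fold changes of the same small size. Rpsa, also described as a laminin receptor, had -0.27, and Rps27a, made as a fusion with ubiquitin, -0.26. Rps19, mutated in Diamond-Blackfan anaemia, had -0.18, and Rps14, lost in a form of myelodysplasia, -0.12. Rpl38, needed for translation of Hox messages, had -0.20, Rps6, the substrate of the S6 kinases, -0.14, and Fau, which carries a ubiquitin-like domain, -0.08. Their adjusted p was 0.563 or more by edgeR.

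Only 7 members lay above 0. Rpl3l stood at 12.6, 8.32, 12.9 and 12.8 CPM in wild-type and 11.6, 14.5, 18.6 and 17.2 CPM in DKO pools, a log2 fold change of 0.41 ± 0.23 (SE, n = 4 per group; edgeR adjusted p = 0.528). DKO pool 1 lay among the wild-type pools, so the groups overlap. The value was 0.27 without wild-type pool 2 and 0.64 with limma-voom. For Rps27l the log2 fold change was 0.27 ± 0.15 (SE, n = 4 per group; edgeR adjusted p = 0.524), with DKO pool 4 below wild-type pool 3, and it was 0.17 without DKO pool 1. Rpl22, Rps29 and Rpl7a had 0.07, 0.06 and 0.02, and each of these signs turned with some single pool left out.

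The members varied together from pool to pool by more than the genotype means differed. They held 1.24%, 1.22%, 1.22% and 1.54% of counts in wild-type and 1.01%, 1.44%, 1.21% and 1.32% in DKO pools 1 to 4. The group means were 1.31% ± 0.156 (SD, n = 4) in wild-type and 1.25% ± 0.181 (SD, n = 4) in DKO pools, so the difference of -0.0627 percentage points is smaller than either SD. The 40S members held 0.559% ± 0.0846 of wild-type and 0.542% ± 0.0808 of DKO counts, and the 60S members 0.749% ± 0.0715 and 0.703% ± 0.102.

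DKO pool 1 and wild-type pool 4 stood at opposite ends. These 2 pools were singled out after their values were seen. As a median deviation from each gene's mean over the pools (log2 CPM), members were at 0.04, -0.08, -0.08 and 0.43 in wild-type and -0.45, 0.24, -0.13 and 0.04 in DKO pools 1 to 4. DKO pool 1 was the lowest of the 8 in 71 of 80 members, against 25.1% of all genes, and wild-type pool 4 the highest in 71 of 80, against 17.5%. Within the genotypes, DKO pool 1 was the lowest of its 4 in 74 members (33.0% of all genes) and DKO pool 2 the highest in 71 (23.4%), and wild-type pool 4 was the highest of its 4 in 76 (27.9%). Rps27l alone lay the other way at both ends. It was the 1 member highest of the 8 in DKO pool 1, against 27.1% of all genes, and the 1 member lowest in wild-type pool 4, against 17.3%.

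**Figure D4:**
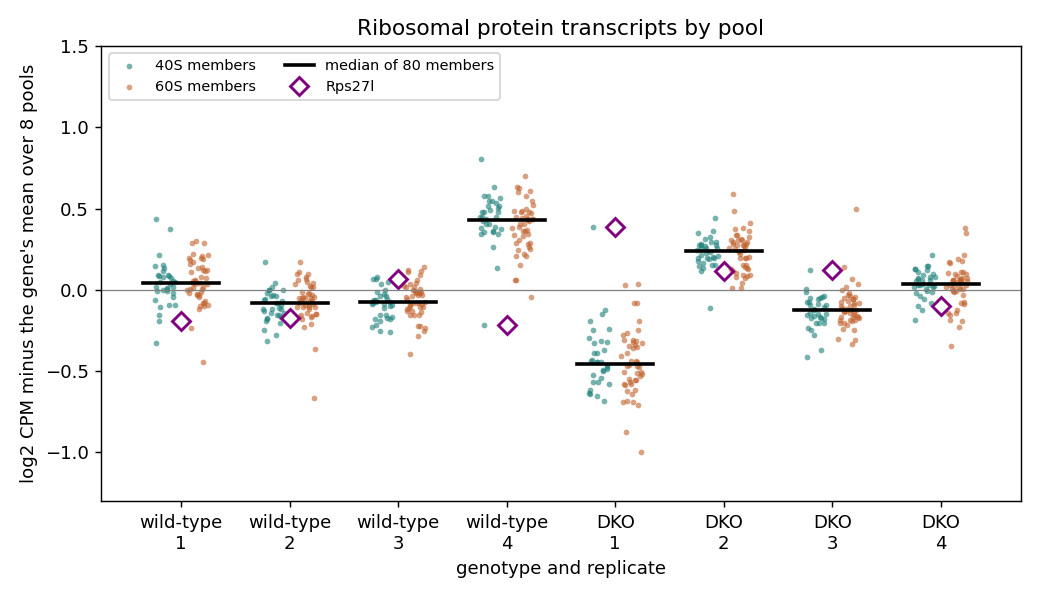
Each member's log2 CPM minus its mean over the 8 pools, by pool, with 40S members in teal, 60S members in orange, the median of 80 members as a bar and Rps27l as a diamond. The bar is lowest in DKO pool 1 (-0.45) and highest in wild-type pool 4 (0.43), and Rps27l lies on the other side of 0 in both.

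The median shift was nearer to 0 without either of those 2 pools. The median log2 fold change of the members was -0.14 with all pools, -0.04 without DKO pool 1 and -0.02 without wild-type pool 4. The number of members below 0 went from 73 to 51 without DKO pool 1, against 51.1% of all genes in that fit, and to 44 without wild-type pool 4, against 48.6%. Without DKO pool 2, the highest of its group, the median was -0.25, and 9 of 80 members had an unadjusted p under 0.05 in edgeR, against 13.5% of all genes in that fit, with 0 members called. That count was 1 with all pools, 2 without wild-type pool 3, and 0 without DKO pool 3, DKO pool 4, wild-type pool 1 or wild-type pool 4.

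The summed oocyte markers had the same 2 pools at their ends, in the opposite order. The 8 oocyte markers, all detected, summed to 6308, 6106, 8421 and 4597 CPM in wild-type and 14335, 7864, 9896 and 8258 CPM in DKO pools 1 to 4, highest in DKO pool 1 and lowest in wild-type pool 4. The sum was mostly Omt2b, Btg4 and Oosp1. Of the 8 markers 6 were highest in DKO pool 1, against 27.1% of all genes, and 5 lowest in wild-type pool 4, against 17.3%. Zp3 lay the members' way, at 116 CPM in DKO pool 1 and 185 CPM in wild-type pool 4. In DKO, 7 of the 8 had a log2 fold change above 0 (median 0.36), against 51.2% of all genes tested (median 0.01). By edgeR 4 of the 8 were higher at an unadjusted p under 0.05, against 5.79% of all genes, and 0 passed an adjusted p under 0.05. Blood markers were at 195 CPM in DKO pool 4 and 152 CPM in wild-type pool 1, and at 3.32 to 6.84 CPM in the other 6 pools. Mitochondrially encoded genes held 7.08% ± 0.945 of wild-type and 6.38% ± 0.351 of DKO counts. The part of these measures in the members' values was not tested.

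**Figure D5:**
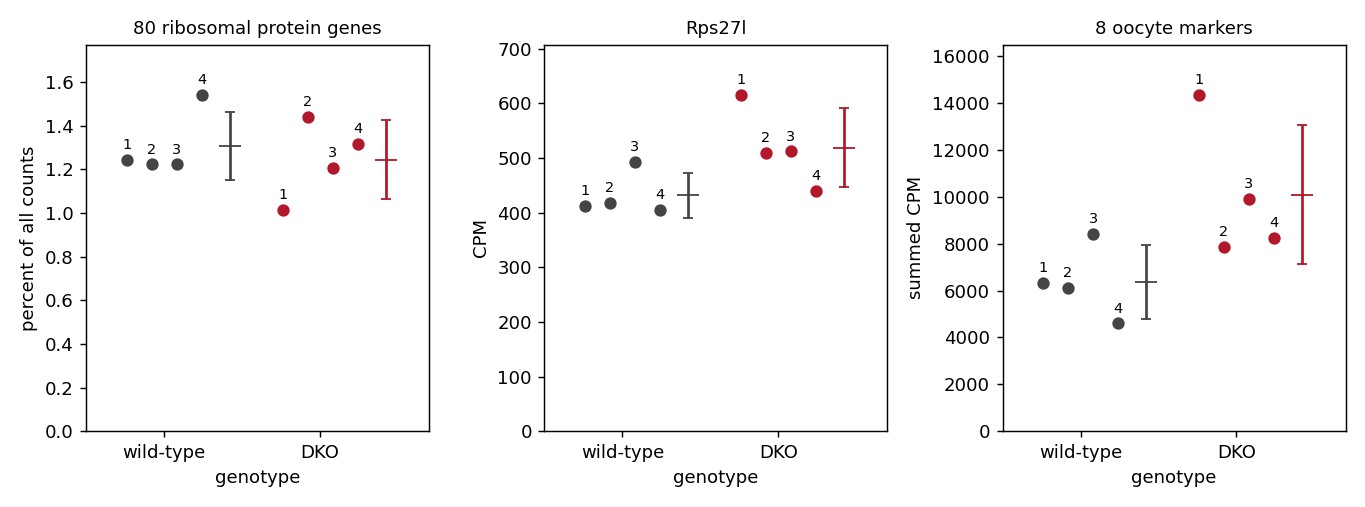
Share of counts in the 80 members (percent), Rps27l (CPM) and the summed level of 8 oocyte markers (CPM) in each pool, numbered by replicate, with bars for the mean and SD of 4 pools. DKO pool 1 has the lowest member share (1.01%) and the highest oocyte marker sum (14335 CPM), and wild-type pool 4 has the highest share (1.54%) and the lowest sum (4597 CPM).

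Genes that work with the ribosomal proteins gave no call either. Of 20 other genes listed as having messages of this class, elongation and initiation factors among them, 14 had a log2 fold change below 0, against 48.8% of all genes tested. Their median was -0.10, against 0.01 over all genes, and it was -0.03 without DKO pool 1 and -0.02 without wild-type pool 4. By edgeR 0 of 20 were called, and 1 was lower at an unadjusted p under 0.05, against 4.44% of all genes. The list came from textbook knowledge, and the pyrimidine run described above was found in 6 of the 13 with a RefSeq promoter. The gene at an unadjusted p under 0.05 was Eef1b2, an exchange factor of elongation factor 1, at 67.1, 58.1, 53.7 and 64.7 CPM in wild-type and 46.0, 54.9, 44.5 and 44.5 CPM in DKO pools (log2 fold change -0.36 ± 0.15, SE, n = 4 per group; edgeR adjusted p = 0.475). DKO pool 2 lay between wild-type pools 3 and 2, so the groups overlap.

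Among chaperones that escort single ribosomal proteins, 7 of 8 were tested, Pdcd2 having 0 counts. Of these, 6 of 7 had a log2 fold change below 0 (median -0.31, 0 called), against 48.8% of all genes tested. DKO pool 1 was the lowest of the 8 pools in 5 of the 7, against 25.1% of all genes. Wild-type pool 4 was the highest in 2, against 17.5%. The chaperone median was not taken with single pools left out. Aamp, the counterpart of the yeast Rpl10 chaperone Sqt1, had the smallest p of the list (unadjusted p = 0.0967 by edgeR). Among 10 regulators of the translation of these messages, 8 were below 0 (median -0.16, 0 called), against 48.8% of all genes tested. The smallest p was that of Tia1, which holds such messages back under stress, at 2.92 ± 0.819 CPM in wild-type and 1.22 ± 0.454 CPM in DKO pools (log2 fold change -1.26 ± 0.41, SE, n = 4 per group; edgeR adjusted p = 0.469). Of the relatives outside the naming rule, Rpl36al, Rpl22l1, Rpl7l1, Rps4l and Rack1 had log2 fold changes of -0.09, -0.32, -0.34, -0.15 and -0.28, with 0 called by edgeR and 0 at an unadjusted p under 0.05. Rack1 is also among the 20 messages above.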

How the data were processed

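Each library has 1 deposited table of raw gene counts, whole numbers with no normalization. PolyA RNA of each pool was made into cDNA with the SMART-Seq v4 kit in 11 PCR cycles and into libraries with a NuGEN Ovation kit in 11 cycles, and all 8 libraries shared 1 flow cell of single 85-cycle reads, per the labels' protocols. The submitters' processing notes name STAR 2.5.2b, featureCounts 1.5.1, and the builds NCBIM37 and mm9, and the sources used here do not say how strand or reads fitting several places were treated. PCR without molecular tags means that reads are not independent molecules.

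Symbols, lengths and coding sequences came from GENCODE M21 on GRCm38, which matched 32620 of 37310 identifiers. DKO and wild-type counts were compared in R 4.3.3 by edgeR 4.0.16 (filterByExpr, TMM, robust quasi-likelihood fit, Benjamini-Hochberg adjustment over 14970 genes, threshold 0.05), without covariates. Intervals are at 95%. A prior count of 2 was added for log2 CPM. The test was also run on simulated data. Alternatives were DESeq2 1.42.0, limma-voom (limma 3.58.1) with sample weights, other scalings and filters, the number of embryos as a covariate, a replicate block and leaving out each pool. Named genes are the 5 members highest and lowest in level per kb and in fold change, the 5 with the smallest p, the paralogue pairs, a set of members with known roles, and the gene with the smallest p in each other list. Members, lists and rules were chosen with earlier results of these data known. Pools are separate litters, so n counts litters. Values of some genes are not reported here.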

Additional observations from a re-analysis of the deposited data

Results flagged for a closer look

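In 9 of 74 groups of 4 pools tested for a single outlying pool, 1 pool lay far from the others by Dixon's criterion, of which chance gives about 5% in groups like these. Members share pools, so these are not separate events. Wild-type pool 4 was far above the other wild-type pools for Rpl11 (127.6 CPM, others 85.5 to 92.2), Rpl39l (164.6 CPM, others 126.7 to 129.8), Rpl5 (153.9 CPM, others 92.7 to 101.6), Rplp1 (169.9 CPM, others 116.0 to 122.7), Rps27 (60.4 CPM, others 45.1 to 47.1) and Rps3a1 (499.0 CPM, others 348.5 to 361.7). The summed share of the members in that pool was 1.54% against 1.22% to 1.24% in the other wild-type pools. Wild-type pool 3 was far above the others for Rps27l (493.0 CPM, others 405.5 to 417.5). Wild-type pool 2 was far below the others for Rpl3l (8.32 CPM, others 12.6 to 12.9).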

How the results depend on the processing

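No ribosomal protein gene passed the adjusted threshold under any of the 21 alternatives run. Genes called over the whole table numbered 4, and 47 with DESeq2, 7 without a filter and 1 with a mean of at least 10 CPM. The members' median log2 fold change stayed below 0, at -0.04 with limma-voom, -0.08 by library size alone, -0.19 with embryos per pool as a covariate and -0.25 to -0.02 with 1 pool left out, while the median of all genes lay between -0.01 and 0.07. Without both libraries numbered 1, an alternative chosen after seeing the data, it was -0.05. The difference in summed share ranged from -0.128 to 0.0149 percentage points with 1 pool left out, above 0 without DKO replicate 1 or wild-type replicate 4. DKO and wild-type pools of the same number had correlations of 0.00235 to 0.0780 in their deviations from the group means. These lay within the range for pools of unlike number, -0.190 to 0.224. With the replicate block the members' median was -0.14, with 0 members at an unadjusted p under 0.05 against 1. Signs near 0 turned for Rpl7a (-0.0011 with the replicate block, -0.0027 with the embryo covariate, and with 1 pool left out -0.11 to 0.11, below 0 without DKO replicate 2, wild-type replicate 2 or wild-type replicate 3, at -0.113, -0.0226 and -0.0178), Rpl22 (-0.0226 to 0.14 with 1 pool left out, below 0 without DKO replicate 2) and Rps29 (-0.0600 to 0.20, below 0 when DKO pool 2 or wild-type pool 1, at -0.034, was left out). The range of levels, 463-fold, was 246-fold with an estimated shared part taken off each length and the counts kept. With 4 pools a group, a typical member's log2 fold change had a standard error of 0.18.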
